A study of Mus musculus with 2 samples.

Results

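The mitochondrial protein import machinery was taken as every gene whose symbol starts with Timm or Tomm followed by a number, together with Samm50, Dnajc19, Pam16, Grpel1, Pmpca, Pmpcb, Mtx1 and Mtx2. Of the 22587 gene symbols in the matrices 33 met this rule, and 31 of them had 20 or more UMIs over both libraries, among 13656 symbols that did. Just outside this bound were Tomm20l with 7 UMIs and Timm8a2 with 0, and just inside it was Pam16 with 200. UMI stands for unique molecular identifier, the tag that lets each captured mRNA molecule be counted once.

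Most mitochondrial proteins are encoded in the nucleus, made in the cytosol and imported. TOM forms the gate in the outer membrane, SAM inserts barrel-shaped proteins into that membrane, and small TIM chaperones ferry hydrophobic proteins across the space between the membranes. TIM23, driven by an import motor, takes proteins with a presequence into the matrix, where the processing peptidase cuts the presequence off, while TIM22 inserts carrier proteins into the inner membrane. OPA1 is the inner membrane GTPase that fuses that membrane and keeps the cristae in shape.

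The study asked what loss of Opa1 does to adult neural stem cells (NSCs). Hippocampal cells positive for YFP and negative for propidium iodide were sorted 4 weeks post-TAM from 12-week-old mice, 3 per genotype, and the cells of a genotype went into a single 10x Genomics 3′ library. All mice carried Nestin-CreERT2, active only after tamoxifen (TAM) in nestin-expressing cells and their progeny, and the ROSA26YFP reporter. By the study's methods control transgenic (CT) mice had no floxed Opa1, whereas Opa1 cKO mice were Opa1 flox/flox, and both had received TAM. The strain labels name Opa1-Flox for both libraries, and the CT library is titled WT. Since each genotype is 1 library of pooled mice, genotype and library cannot be told apart, no p-value was computed, and the intervals printed here are exact 95% intervals that cover counting error only.

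The CT library held 4634 barcodes and 10799936 UMIs, and the Opa1 cKO library 6475 barcodes and 18662032 UMIs. The filters on genes, mitochondrial share and YFP kept 1790 and 3764 cells, with medians of 2555 and 3008 UMIs, and 9 barcodes occurred among the kept cells of both libraries. The NSC pool-like class held 1349 CT and 2559 Opa1 cKO cells. It was named from a list of 16 markers that includes Aldoc, Gfap, Sox2 and Apoe. None of its 16 markers was at 0 UMIs in either library. Most of its CT cells (1345) were in a cluster led by Cxcl14 and Slc7a10, and most of its Opa1 cKO cells (1791) in another led by Nupr1, Acsbg1 and Gdf15. Hopx and Id4, on the same marker list, were instead among the 10 leading genes of the activated NSC-like cluster. Stem cells and astrocytes were not told apart within the NSC pool-like class.

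The class was further split by mt share, the percentage of a cell's UMIs that came from mitochondrially encoded genes. A cell was called low under 1% and normal at 2% or more. In Opa1 cKO 1578 NSC pool-like cells were low (61.7%), 154 lay between and 827 were normal, whereas in CT 3 were low, 11 lay between and 1335 were normal. The split was not sharp at its lower bound, with 135 Opa1 cKO cells from 0.8% to 1% and 57 from 1% to 1.2%. Median depth was 2976.5 UMIs in low cells, 3013 in normal cells and 2493 in CT cells.

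In NSC pool-like cells 69 Opa1 UMIs were counted in CT and 66 in Opa1 cKO, or 18.6 CPM (counts per 1000000 UMIs, interval 14.5 to 23.6) against 7.83 CPM (6.06 to 9.96). The log2 ratio was -1.25 (-1.76 to -0.74), and the level was 11.4 CPM in normal and 6.46 CPM in low cells of Opa1 cKO. The assay reads the 3′ end of a transcript, so this does not measure the floxed segment itself.

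In NSC pool-like cells the import genes as a group were higher in Opa1 cKO than in CT. Together they took 2846 CPM (2792 to 2901) in CT and 3642 CPM (3601 to 3683) in Opa1 cKO, for a log2 ratio of 0.36 (0.32 to 0.39). Seen per cell, the median was 7 import UMIs in CT and 11 in Opa1 cKO, or 2747 and 3543 CPM of the cell's own UMIs, and the middle 50% of cells ran from 1967 to 3523 in CT and from 2713 to 4414 in Opa1 cKO. The distributions over cells overlapped widely, while the intervals of the sums did not.

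A gene was counted as higher or lower past the fold when its log2 ratio was at least 0.5 in size, among genes with 100 or more UMIs over the groups compared. Of the 30 import genes with enough UMIs 7 were higher, against 17.3% of all 8716 genes, and 0 were lower, against 13.6%. The share that was higher was slightly above the background, and none went the other way. Their median log2 ratio was 0.30, against 0.07 over all genes, 27 of the 30 lay above that all-gene median, and the interval was wholly above 0 for 19, against 32.3% of all genes, and wholly below 0 for none, against 22.3%. An interval is narrower for a gene with more UMIs, and the all-gene share was not matched for UMIs. The log2 ratios of the 30 import genes ran from -0.14 to 1.17. Pam16, a motor subunit with 26 CT and 57 Opa1 cKO UMIs, was the member that had too few.

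**Figure D1:**
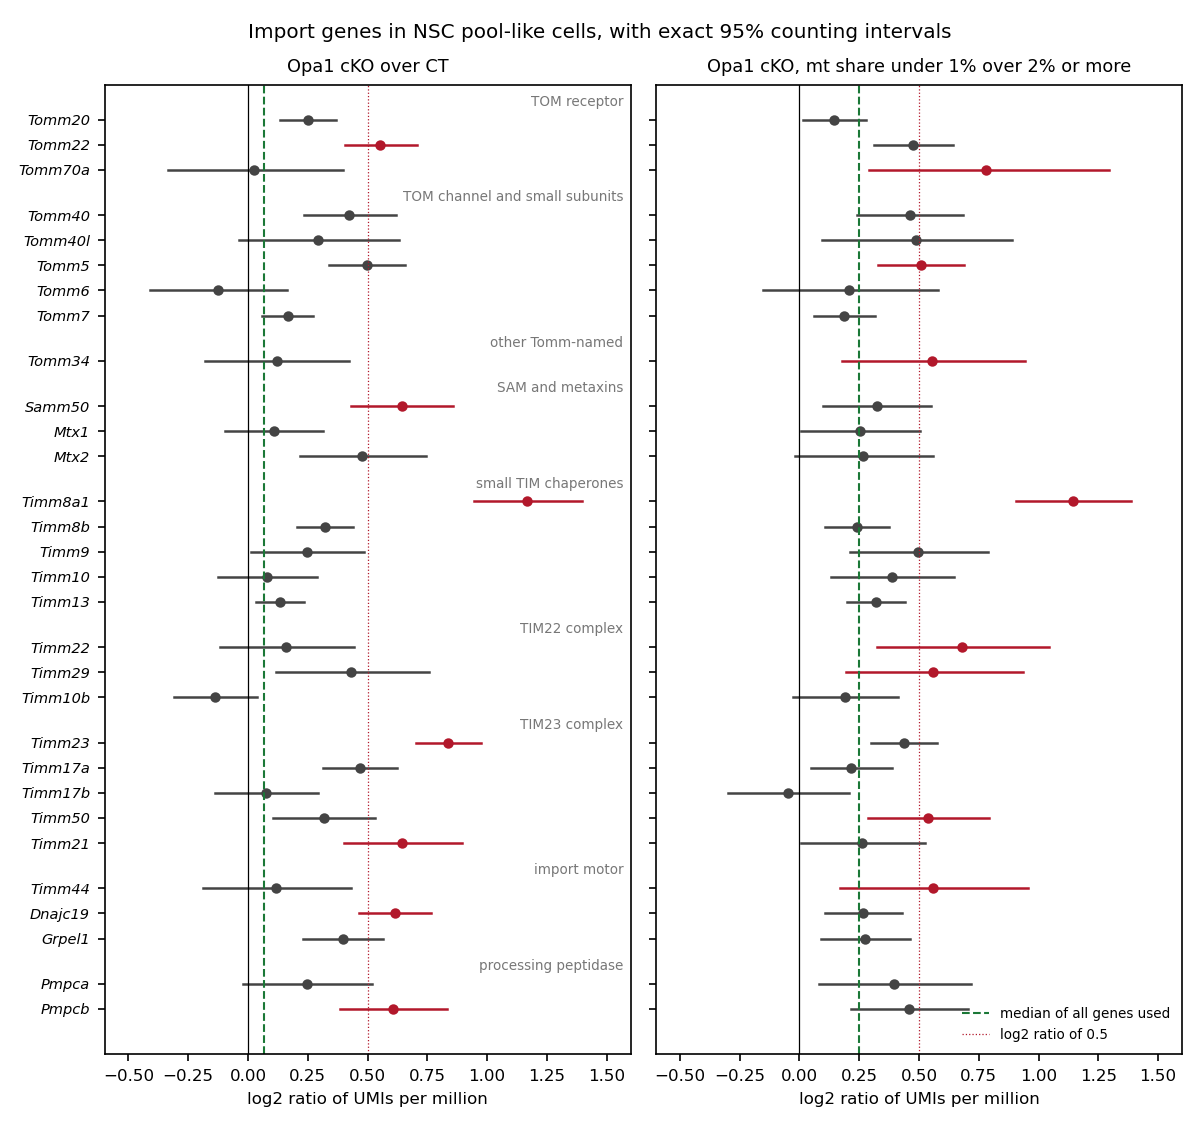
Log2 ratio of CPM (horizontal axis) of the 30 import genes in NSC pool-like cells, ordered by role, for Opa1 cKO over CT (left) and for low over normal mt share within Opa1 cKO (right). Points are ratios, bars exact 95% counting intervals, red marks ratios of 0.5 or more, and the dashed line is the median of all genes used; 7 genes on the left and 8 on the right are red, and Timm8a1 is the furthest right in both.

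The role with the highest ratio of its summed UMIs was the TIM23 complex, at a log2 ratio of 0.55 (0.47 to 0.63), from 456 to 667 CPM. The processing peptidase followed at 0.46 (0.29 to 0.64), the motor at 0.46 (0.36 to 0.56), SAM with the metaxins at 0.40 (0.28 to 0.53) and the TOM receptors at 0.35 (0.26 to 0.44). The small TIM chaperones had 0.30 (0.24 to 0.37) and the TOM channel with its small subunits 0.27 (0.20 to 0.35). The intervals of neighbours in this order overlap. The TIM22 complex had 0.04 (-0.09 to 0.17), an interval below those of all these roles. Abundant members weigh most in these sums. In the TIM22 complex Timm10b, at -0.14, had 411 CT and 851 Opa1 cKO UMIs, against 149 and 379 for Timm22 and 110 and 338 for Timm29. By the median over members SAM with the metaxins had 0.48, the TIM23 complex 0.47 and the TIM22 complex 0.16.

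Timm8a1 showed the largest ratio of all members. Its protein is the small chaperone that pairs with TIMM13, and the human gene is the one mutated in deafness-dystonia syndrome. The gene lies at chrX:134537256-134541865 on the minus strand of mm10. Its UMIs numbered 194 in CT and 993 in Opa1 cKO, or 52.4 CPM (45.3 to 60.3) against 118 CPM (111 to 125), a log2 ratio of 1.17 (0.94 to 1.40) that was above those of 98.3% of all genes used. Within Opa1 cKO its level was 65.5 CPM (56.3 to 75.9) in normal and 145 CPM (135 to 155) in low cells. The low cells thus stood apart. The CPM intervals of normal Opa1 cKO and CT cells overlapped, though the interval of their log2 ratio lay above 0. Over the 272 genes of the X chromosome with enough UMIs the median log2 ratio was -0.01, and Timm17b, the other import gene on it, had 0.08.

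The remaining small chaperones were closer to CT. Timm8b, the paralog of Timm8a1, went from 218 CPM (203 to 233) to 272 CPM (261 to 283), a log2 ratio of 0.32 (0.20 to 0.44). Timm13, which encodes the partner of TIMM8A, went from 308 CPM (290 to 326) to 337 CPM (325 to 350), or 0.13 (0.03 to 0.23). The ratio of Timm8a1 was thus well outside the interval of its paralog and of its partner. Timm9 and Timm10, which form the other chaperone complex, had log2 ratios of 0.25 and 0.08.

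Timm23, the channel-forming subunit of the TIM23 complex, had the next largest ratio. Its 554 CT and 2252 Opa1 cKO UMIs came to 150 CPM (138 to 163) against 267 CPM (256 to 278), a log2 ratio of 0.84 (0.70 to 0.97). In normal cells of Opa1 cKO it stood at 217 CPM (200 to 235), between CT and the 293 CPM (279 to 308) of low cells, and the 3 intervals did not overlap. Timm21, which links TIM23 to TOM and the respiratory chain, had 48.1 CPM (41.3 to 55.7) in CT and 75.2 CPM (69.5 to 81.3) in Opa1 cKO, or, as a log2 ratio, 0.65 (0.40 to 0.89). It was at 66.3 CPM in normal and 79.6 CPM in low cells, so most of its distance from CT was already present in normal cells. Timm50, the receptor of the complex, had a log2 ratio of 0.32.

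The channel-lining partners of Timm23 come as 2 paralogs, and these differed. Timm17a went from 122 CPM (111 to 133) in CT to 168 CPM (160 to 177) in Opa1 cKO, with a log2 ratio of 0.47 (0.31 to 0.62). Timm17b went from 68.9 CPM (60.7 to 77.9) to 72.6 CPM (67.0 to 78.6), or 0.08 (-0.14 to 0.29). The interval of Timm17a lies above that of Timm17b by a narrow margin. In normal and low cells Timm17a stood at 153 and 177 CPM, and Timm17b at 73.6 and 71.2 CPM.

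Among the motor subunits Dnajc19, the J-domain protein of the inner membrane also known as TIM14, had 123 CPM (112 to 135) in CT and 189 CPM (180 to 198) in Opa1 cKO, giving a log2 ratio of 0.61 (0.46 to 0.77). Grpel1, the nucleotide exchange factor of the motor, had 107 CPM (97.0 to 118) and 141 CPM (133 to 150), or 0.40. Timm44, which tethers the motor to the channel, had 33.2 CPM (27.6 to 39.7) and 36.1 CPM (32.1 to 40.4), or 0.12 (-0.19 to 0.43). Dnajc19 was already at 167 CPM (152 to 183) in normal cells, above its CT interval.

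The processing peptidase is a dimer of an alpha and a beta subunit. The catalytic beta subunit Pmpcb had 57.8 CPM (50.3 to 66.1) in CT and 88.0 CPM (81.8 to 94.6) in Opa1 cKO, or, as a log2 ratio, 0.61 (0.39 to 0.83). The alpha subunit Pmpca had 43.2 CPM (36.8 to 50.5) and 51.3 CPM (46.5 to 56.3), or 0.25 (-0.02 to 0.52). These intervals overlap, and the difference between the subunits was not tested.

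At the outer membrane, Samm50, the core of the SAM complex, had 63.2 CPM (55.4 to 71.9) in CT and 98.7 CPM (92.1 to 106) in Opa1 cKO, with a log2 ratio of 0.64 (0.43 to 0.86). Of the metaxins, which sit on SAM, Mtx2 had 42.7 CPM (36.3 to 49.9) and 59.4 CPM (54.4 to 64.9), or 0.48 (0.22 to 0.74), and Mtx1 had 74.9 CPM (66.3 to 84.2) and 80.7 CPM (74.7 to 87.0), or 0.11 (-0.10 to 0.32). The intervals of both metaxin ratios overlap, and their difference was not tested.

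Tomm22, the central receptor that organizes the TOM complex, had 128 CPM (117 to 140) in CT and 188 CPM (179 to 198) in Opa1 cKO, giving a log2 ratio of 0.55 (0.41 to 0.70), which other settings put at 0.49 to 0.59. Tomm20, the presequence receptor, had 226 CPM (211 to 242) and 269 CPM (258 to 281), or 0.25, and Tomm70a, the receptor of carrier precursors, had 24.6 CPM (19.8 to 30.2) in CT and a level inside that interval in Opa1 cKO (21.8 to 28.7 CPM), or 0.03 (-0.34 to 0.40). The 3 receptors thus did not share 1 ratio, and the interval of Tomm22 lies above that of Tomm20.

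Of the channel subunits, Tomm40, which forms the pore, had 79.7 CPM (70.9 to 89.4) in CT and 107 CPM (100 to 114) in Opa1 cKO, or, as a log2 ratio, 0.42 (0.23 to 0.62), and its paralog Tomm40l had 27.8 CPM (22.7 to 33.8) and 34.1 CPM (30.2 to 38.2), or 0.29 (-0.04 to 0.63). Tomm5, a small subunit, had 118 CPM (107 to 130) and 167 CPM (158 to 175), or 0.50 (0.34 to 0.66), just under the fold. The other small subunits Tomm7 and Tomm6 had 0.17 and -0.13. Tomm34, a cytosolic cochaperone and not a TOM subunit, had 0.12.

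Within the TIM22 complex Timm29 had 0.43 (0.12 to 0.76), Timm22, the insertion channel, 0.16 (-0.12 to 0.44), and Timm10b, the chaperone docked on it, -0.14 (-0.31 to 0.04). Timm10b went from 111 CPM (101 to 122) in CT to 101 CPM (94.3 to 108) in Opa1 cKO, whereas Timm10 went from 74.6 CPM (66.0 to 83.9) to 78.8 CPM (72.9 to 85.0). Timm10b and Tomm6, the members with the lowest ratios, each overlap a predicted gene on the same strand, Gm45799 and Gm21981, so their UMIs are less certain.

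**Figure D2:**
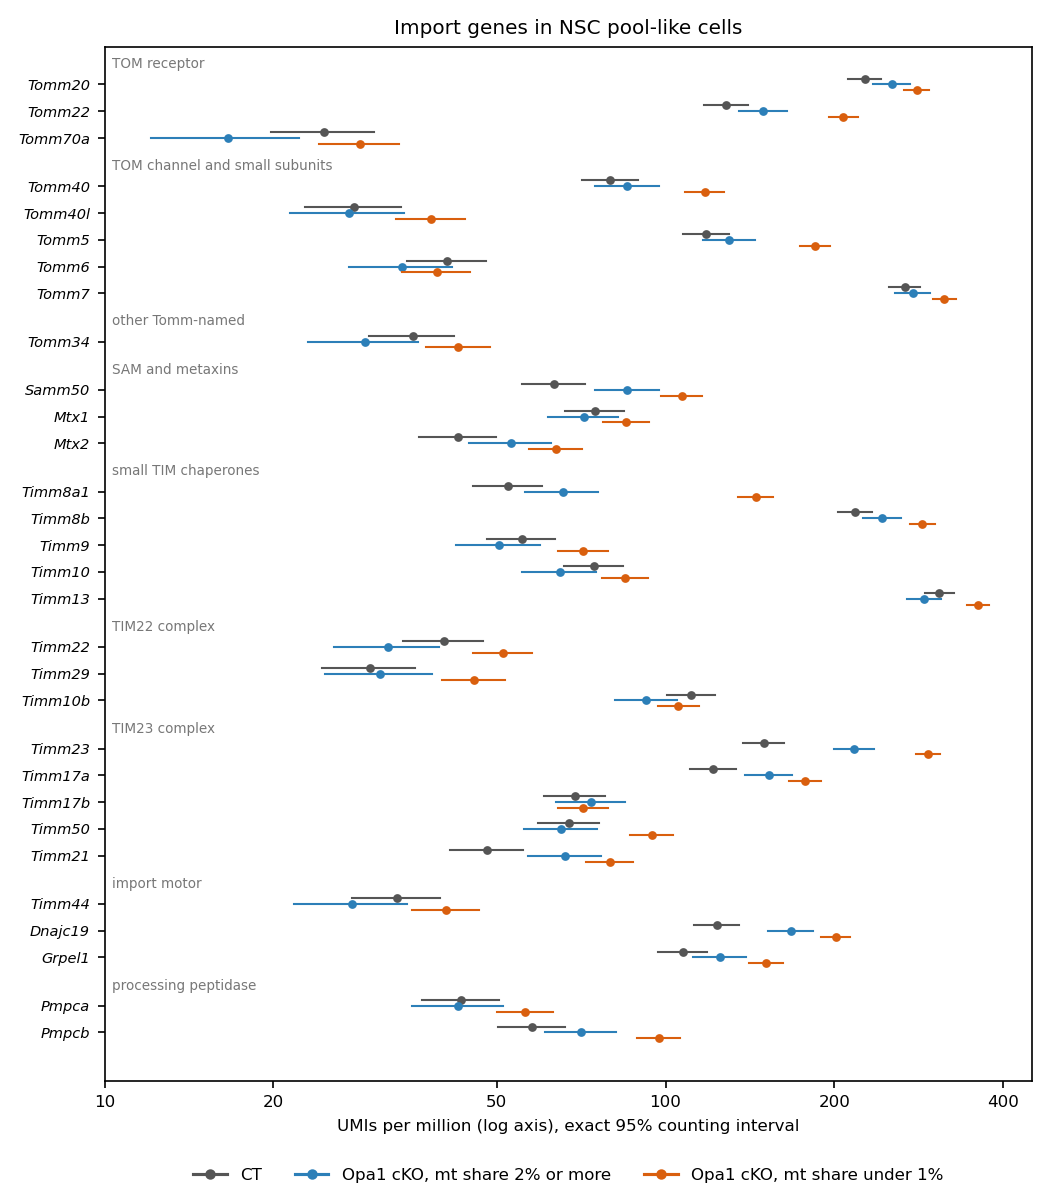
Level of each of the 30 import genes (CPM, log axis) in NSC pool-like cells of CT (grey), of Opa1 cKO with normal mt share (blue) and of Opa1 cKO with low mt share (orange), ordered by role, with exact 95% counting intervals. Timm8a1 is set apart in low cells (145 CPM against 65.5 and 52.4), Timm23 is higher at each step over the 3 groups (150, 217 and 293 CPM), and Timm17b stays near 70 CPM in each.

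Low cells of the Opa1 cKO library had more import UMIs than normal cells of the same library. The sum was 3095 CPM in normal and 3928 CPM in low cells, a log2 ratio of 0.34 (0.31 to 0.38), at nearly equal median depth. Of the 30 import genes 8 were higher past the fold, against 26.2% of all 7484 genes, and 0 were lower, against 4.34%. The median log2 ratio was 0.39 for import genes and 0.25 for all genes, and 23 of the 30 lay above the all-gene median. A share of 8 in 30 is near the background, and set at the all-gene median only 2 stayed past the fold, Timm8a1 and Tomm70a. Beside this, the 16 NSC pool markers summed to 87739 CPM in normal and 64852 CPM in low cells. The highest single marker had 49223 and 32623 CPM of these sums. The part of the fall of the summed markers in the general upward shift of the ratios was not tested.

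Timm8a1 had a log2 ratio of 1.14 between low and normal cells (0.90 to 1.39). Tomm70a was next, with 16.6 CPM (12.1 to 22.2) in normal and 28.5 CPM (24.1 to 33.4) in low cells, or 0.78 (0.29 to 1.30), on 45 and 150 UMIs. Timm22 had 32.0 CPM (25.7 to 39.5) and 51.3 CPM (45.4 to 57.8), or 0.68 (0.32 to 1.05). Both encode proteins of the carrier import route, the receptor at the outer and the channel at the inner membrane. Their levels in CT, 24.6 and 40.3 CPM, lay between those of normal and low cells.

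Timm29, a TIM22 subunit, had 30.9 CPM (24.7 to 38.3) in normal and 45.6 CPM (40.0 to 51.7) in low cells, and Timm44 had 27.6 CPM (21.7 to 34.6) and 40.6 CPM (35.4 to 46.5), each with a log2 ratio of 0.56. Tomm34 had 29.1 CPM (23.0 to 36.3) and 42.7 CPM (37.3 to 48.7), or 0.55, and Timm50 had 65.2 CPM (55.9 to 75.5) and 94.6 CPM (86.5 to 103), or 0.54. Tomm5 had 130 CPM (117 to 144) and 185 CPM (173 to 197), or 0.51. For each of these 5 genes the interval of low cells lay above that of normal cells, though by under 2 CPM for Timm44, Timm29 and Tomm34. Timm9 (0.50) and Tomm40l (0.49) came close behind. Timm17b, at -0.05 (-0.30 to 0.21), was the single member of the 30 with a ratio under 0.

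Normal cells of Opa1 cKO were nearer to CT, and were not the same as CT in every member. Their summed level was higher than that of CT by a log2 ratio of 0.12 (0.08 to 0.16), with a median of 0.08 against -0.07 over all 6808 genes. Past the fold, 1 import gene was higher, against 3.13% of all genes, and 1 was lower, against 14%. The first was Timm23 at 0.53 (0.37 to 0.71) and the other Tomm70a at -0.57 (-1.12 to -0.04). The interval was wholly above 0 for 11 import genes, among them Timm23, Timm21 (0.46), Dnajc19 (0.44), Samm50 (0.43), Timm17a (0.33) and Timm8a1 (0.32). It was wholly below 0 for 2, Tomm70a and Timm10b, the latter at -0.27. Low cells against CT gave 12 import genes higher, against 26.3% of 7965 genes, and 0 lower, against 14.9%, with a median of 0.43 against 0.14 over all genes, and 8 were higher once centred on the latter.

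By role, the TIM23 complex had a log2 ratio of 0.34 (0.24 to 0.44) in normal cells over CT and 0.32 (0.23 to 0.40) in low over normal cells. The small TIM chaperones had 0.01 (-0.08 to 0.10) in the first comparison and 0.41 (0.33 to 0.49) in the second. The TIM22 complex had -0.22 (-0.40 to -0.04) and 0.38 (0.22 to 0.55). By the median over members the TIM23 complex had 0.33 and 0.26, the small TIM chaperones -0.09 and 0.39, and the TIM22 complex -0.27 and 0.56. Over all genes the median log2 ratio was -0.07 in the first comparison and 0.25 in the second. Both comparisons use the normal cells of Opa1 cKO, so a low level there lowers the first ratio and raises the second.

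**Figure D3:**
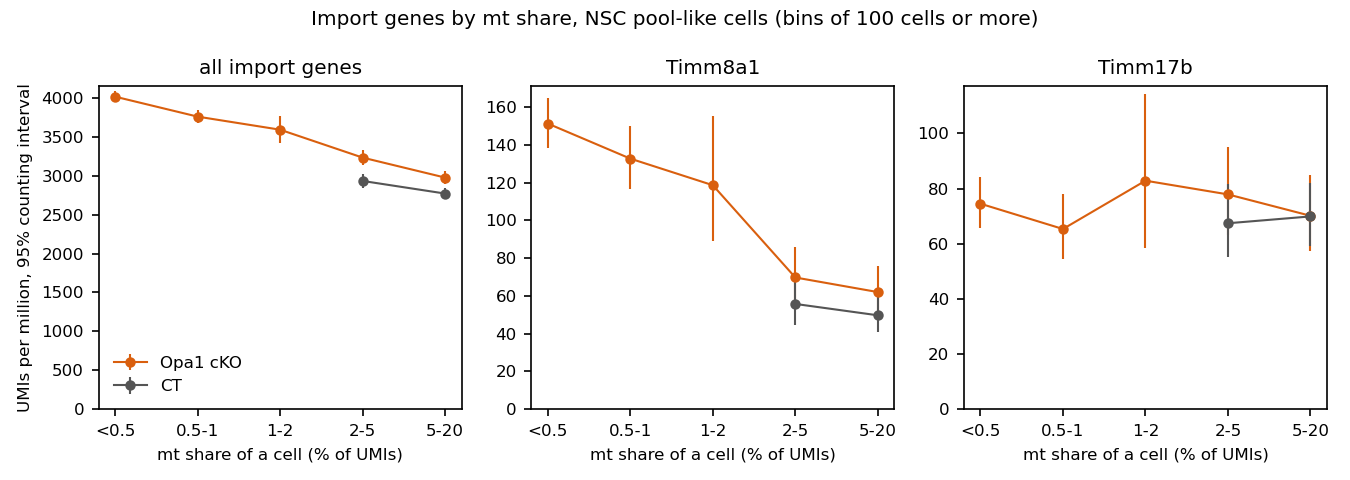
Level (CPM, vertical axes from 0) of all import genes together, of Timm8a1 and of Timm17b in NSC pool-like cells grouped by mt share (horizontal axis, percent of a cell's UMIs), for bins of 100 cells or more, with exact 95% counting intervals. In Opa1 cKO the sum falls from 4019 to 2978 CPM and Timm8a1 from 151 to 62.0 CPM as mt share goes up, while the intervals of Timm17b overlap in all bins.

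The level followed mt share in steps across the Opa1 cKO cells. In bins of under 0.5%, 0.5% to 1%, 1% to 2%, 2% to 5% and 5% or more, which held 998, 580, 154, 383 and 444 cells, the summed level was 4019, 3763, 3594, 3235 and 2978 CPM. Each bin was below the one before it, and of neighbouring bins only 0.5% to 1% and 1% to 2% had overlapping intervals. Timm8a1 had 151, 133, 119, 69.8 and 62.0 CPM in the same bins, with its widest gap at 2%. Timm17b had 74.5, 65.3, 82.9, 77.9 and 70.1 CPM, with no such order. The Opa1 cKO bins are not set here against all genes. Between low and normal cells of Opa1 cKO the median log2 ratio was 0.25 over all genes and 0.39 over import genes. The import sum had 0.34.

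In CT nearly all cells were at 2% or more. The sum there was 2935 CPM at 2% to 5% and 2773 CPM at 5% or more. Its log2 ratio was -0.08 (-0.14 to -0.03), and the medians were -0.07 over 29 import genes and -0.11 over all genes. In the same 2 bins Opa1 cKO was at 3235 CPM (3136 to 3337) and 2978 CPM (2891 to 3067), above CT in both. Mitochondrial UMIs are part of each cell's total, and with them left out of the total the log2 ratio between the lowest and the highest bin was 0.33 in place of 0.43.

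**Figure D4:**
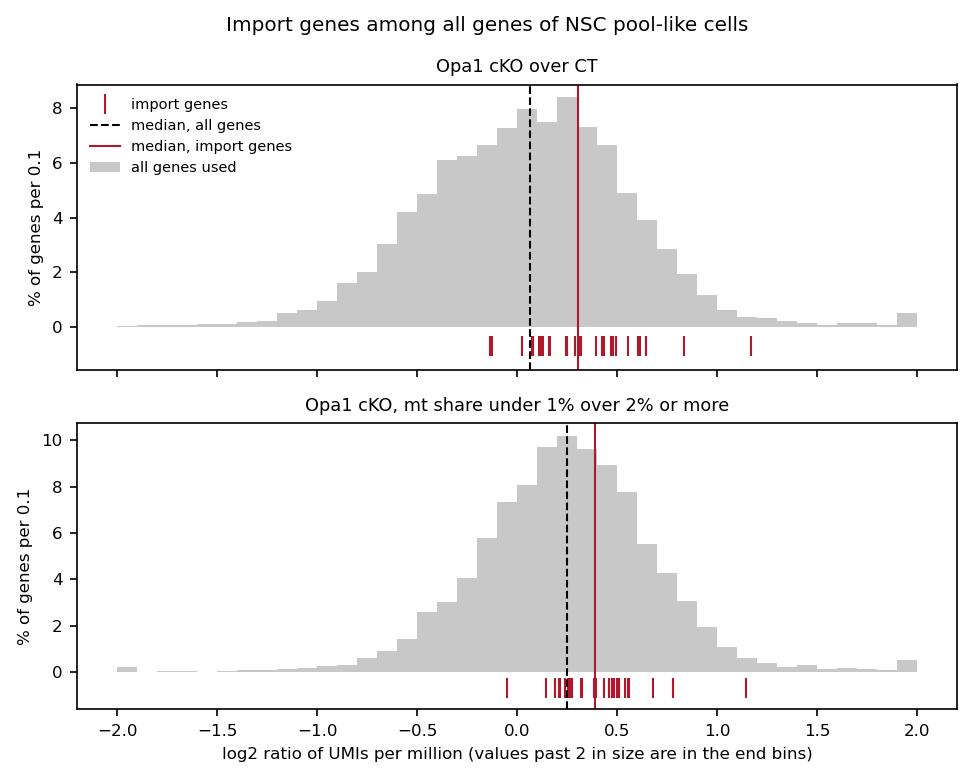
Log2 ratios of all genes with enough UMIs (grey bars, percent of genes per 0.1) and of the 30 import genes (red ticks) in NSC pool-like cells, for Opa1 cKO over CT (top) and low over normal mt share within Opa1 cKO (bottom). The import genes centre at 0.30 against 0.07 for all genes at the top and at 0.39 against 0.25 at the bottom, with Timm8a1 as the tick furthest right.

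The sequences upstream of these genes were compared as well. RefSeq windows on GRCm38.p6 from 250 bases before to 50 after the start site were matched by symbol for 30 of the 33 genes, with none for Timm21, Tomm40l and Tomm7. The core of the C/EBP-ATF response element, TGATGNAA on either strand, was in 0 of the 30 windows, against 4.51% of all genes. It was also in 0 of the 28 that belong to genes with 20 or more UMIs, against 2.70% of all such genes. At so low a background share a count of 0 is common in a list this short, so no lack of the element is read from it. The ETS core CCGGAAG, read by factors such as GABP, was in 14 of 30, against 9.93% of all genes, and in 13 of the 28 with 20 or more UMIs, against 18.9% of all such genes. The ETS letters were chosen after the expression values had been seen. A match is only a string of letters.

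One CCGGAAG match of 8 genes that hold it is given with 10 bases on each side, to set members with high ratios (Timm23, Tomm22, Pmpcb, Mtx2) beside members with lower ones (Pmpca, Timm8b, Timm10, Tomm70a). Each is written 5′ to 3′ along the strand of its gene with the match, or its reverse complement CTTCCGG, in capitals.
Timm23, chr14:32201922-32201948, minus strand: gcgcttcccaCTTCCGGgccgcacaca
Tomm22, chr15:79670814-79670840, plus strand: cggctcgcttCCGGAAGacgctctgtc
Pmpcb, chr5:21737134-21737160, plus strand: gagtcatgacCCGGAAGtacatctcca
Mtx2, chr2:74825777-74825803, plus strand: ggcggagcagCCGGAAGtgccggcgcg
Pmpca, chr2:26389285-26389311, plus strand: gctcggcgggCCGGAAGccagcgccga
Timm8b, chr9:50603879-50603905, plus strand: gaagcgtgaaCCGGAAGgcaggagacg
Timm10, chr2:84826995-84827021, plus strand: tcggcgttttCTTCCGGatcaaagaag
Tomm70a, chr16:57121624-57121650, plus strand: ccttctgaccCCGGAAGtggttctccc
The match began 47 bases before the start site in Timm23, 44 in Tomm22, 16 in Pmpcb, 25 in Mtx2, 53 in Pmpca, 12 in Timm8b, 16 in Timm10 and 80 in Tomm70a. Among import genes with enough UMIs the log2 ratio of Opa1 cKO over CT had a median of 0.32 for the 13 with a match and 0.28 for the 14 without one, with ranges of -0.14 to 0.84 and -0.13 to 1.17. The match thus did not separate the members by their ratio, and Timm8a1, with the largest, had none.

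A further 19 genes of import and processing outside the naming rule were read in the same way. They were listed with earlier results of these data known, so their share past the fold is not an independent result. In Opa1 cKO over CT NSC pool-like cells 17 had enough UMIs, of which 9 were higher past the fold, against 17.3% of all genes, and 1 lower, against 13.6%, with a median log2 ratio of 0.52 against 0.07. Hspa9, the mitochondrial HSP70 that powers the import motor, had 461 CT and 3820 Opa1 cKO UMIs, or 125 CPM (114 to 136) against 453 CPM (439 to 468), a log2 ratio of 1.86 (1.72 to 2.01). The interval lies above that of Timm8a1 and of its own cofactors Dnajc19 and Grpel1. The matrix chaperonin genes Hspd1 and Hspe1 had 0.85 and 0.37, Immp1l, of the inner membrane peptidase, 0.74, and Gfer, the oxidase of the intermembrane space relay, 0.68.

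Chchd4, which encodes the import receptor of the same relay, had 0.28, and Romo1, a small subunit of the TIM23 complex, -0.24. The gene lower past the fold was Mtx3, the remaining metaxin, at -0.54. Between low and normal cells 7 of 17 were higher, against 26.2% of all genes, and 0 lower, against 4.34%, and with the ratios centred on the all-gene median 3 were higher. Hspa9 was at 1.72, from 179 to 590 CPM. Grpel2, the paralog of Grpel1, had 1.01 (37 and 144 UMIs) and Gfer 0.95.

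**Figure D5:**
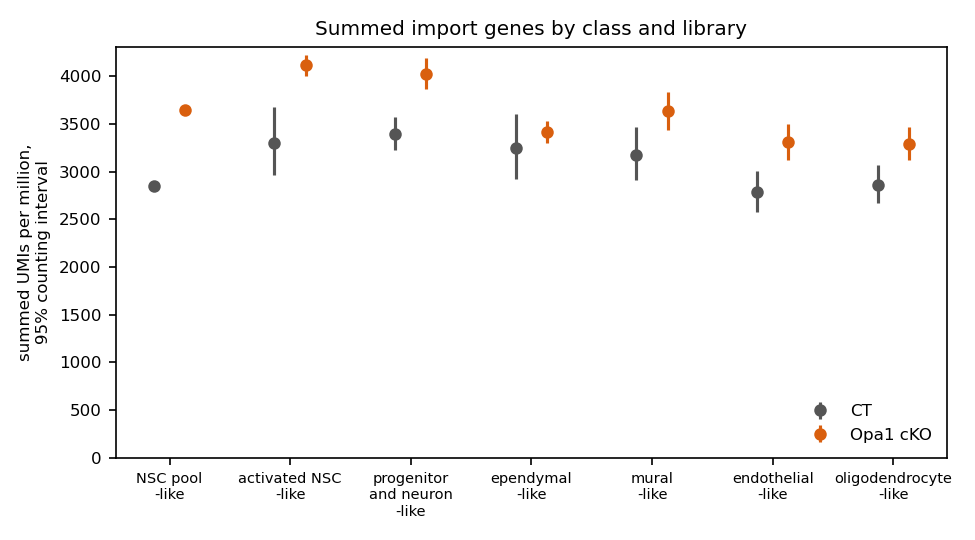
Summed level of the import genes (CPM, vertical axis from 0) in each marker-defined class of CT (grey) and Opa1 cKO (orange), with exact 95% counting intervals. Opa1 cKO is above CT in all 7 classes. The log2 ratio of the sums is largest in NSC pool-like cells (3642 against 2846 CPM), at 0.36, which lies inside the activated NSC-like interval (0.16 to 0.48). It is smallest in ependymal-like cells (3414 against 3251 CPM). The CPM intervals of CT and Opa1 cKO overlap in ependymal-like and in mural-like cells. The median over members is 0.30 in NSC pool-like cells, and over fewer members 0.52 in activated NSC-like and 0.09 in mural-like cells. Other settings put the activated NSC-like median at 0.26 to 0.52. Members there could reach the UMI minimum through Opa1 cKO alone, so no conclusion is drawn from it. The all-gene median log2 ratio is also above 0 in each class, from 0.07 in NSC pool-like to 0.16 in activated NSC-like cells.

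In the other classes fewer cells gave wider intervals. In CT the summed level was 2846 CPM in NSC pool-like cells, 3304 CPM (2963 to 3674) in activated NSC-like cells and 3395 CPM (3227 to 3570) in progenitor and neuron-like cells. It was 3251 CPM in ependymal-like, 3177 CPM in mural-like, 2861 CPM in oligodendrocyte-like and 2787 CPM in endothelial-like cells. In ependymal-like cells Tomm7 alone had 904 CPM (735 to 1101), against 267 CPM in NSC pool-like cells, so that sum leans on this gene. The progenitor and neuron-like interval lay above the NSC pool-like one, whereas those of endothelial-like and oligodendrocyte-like cells included it.

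Among CT cells, 7 of 30 import genes were higher past the fold in progenitor and neuron-like than in NSC pool-like cells, against 38.7% of all genes, and 1 was lower, against 33.6%. In CT, NSC pool-like cells held 3700559 UMIs and progenitor and neuron-like cells 450043. This exceeds the limit of 5 times set for such counts between Opa1 cKO and CT. A gene could reach the UMI minimum through NSC pool-like cells alone, so no conclusion is drawn from these counts against the background shares. Tomm70a had the highest ratio in progenitor and neuron-like cells at 2.06, and Mtx1 the lowest of those with enough UMIs at -0.90. In that class Tomm70a had 102 CPM (74.8 to 136) on 46 UMIs in CT. In Opa1 cKO it had 44.7 CPM (29.4 to 65.0) on 27 UMIs, too few in all for the count of genes past the fold. Against CT NSC pool-like cells Tomm70a had log2 ratios of 0.57 to 1.58 in the other classes on few UMIs each, with intervals that included 0 in ependymal-like and activated NSC-like cells.

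Activated NSC-like cells numbered 39 in CT and 432 in Opa1 cKO, with summed levels of 3304 and 4114 CPM, a log2 ratio of 0.32 (0.16 to 0.48). These cells held 103501 UMIs in CT and 1335556 in Opa1 cKO, so a gene could reach 100 UMIs through Opa1 cKO alone, and genes past the fold were not counted here. Timm8a1 had 7 CT and 168 Opa1 cKO UMIs (67.6 and 126 CPM), or 0.90 (-0.18 to 2.23). Within Opa1 cKO, low over normal activated NSC-like cells had a log2 ratio of the sum of 0.08 (-0.02 to 0.18), below the interval of NSC pool-like cells. The all-gene median was lower there as well, at 0.06 against 0.25 in NSC pool-like cells, and the import medians were 0.20 and 0.39. The split also spans unlike mt shares in these classes. Median mt share was 2.82% in normal and 0.71% in low activated NSC-like cells, against 5.18% and 0.41% in NSC pool-like cells.

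Progenitor and neuron-like cells, 139 in CT and 171 in Opa1 cKO, had summed levels of 3395 and 4026 CPM, a log2 ratio of 0.25 (0.15 to 0.34), with 2 of 12 genes higher, against 15.8% of all genes, and 0 lower, against 14%. These were Tomm20, from 320 to 475 CPM, at 0.57 (0.28 to 0.87), and Grpel1, from 104 to 151 CPM, at 0.53 (0.00 to 1.07). Tomm20 had the largest ratio of the 12 genes with enough UMIs in this class, and 0.25 in NSC pool-like cells. The median of the 12 was 0.30, against 0.08 over all genes.

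Endothelial-like cells had a log2 ratio of the sum of 0.25 (0.11 to 0.39), with Timm23 at 0.93 (0.30 to 1.59), from 125 to 237 CPM, and Timm17a at 0.63 as the 2 of 6 genes that were higher, against 13.2% of all genes, and 0 lower, against 9.04%. Oligodendrocyte-like cells had 0.20 (0.08 to 0.33), with Timm8b at 0.50 as the 1 of 9 that was higher, against 13.3%, and 0 lower, against 9.4%. Mural-like cells had 0.19 (0.04 to 0.34), with 0 of 6 past the fold, against 21.5% and 11%. Their import median of 0.09, which other settings put between -0.07 and 0.25, was below the 0.16 of all genes. In endothelial-like and oligodendrocyte-like cells the import medians were each 0.38, against 0.12 and 0.08 over all genes. Other settings put these import medians at 0.09 to 0.45 and at 0.18 to 0.40. Ependymal-like cells had a log2 ratio of the sum of 0.07 (-0.09 to 0.23). They held 109502 CT and 950219 Opa1 cKO UMIs, so their genes past the fold were not counted, as for activated NSC-like cells. The log2 ratio of Hspa9 in these classes ran from 0.24 (-0.41 to 0.96) in ependymal-like to 1.21 (0.65 to 1.81) in mural-like cells.

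Markers of other cell types were low in NSC pool-like cells of every group, as summed CPM. Oligodendrocyte markers came to 385 in CT, 456 in normal and 416 in low cells, activated NSC markers to 789, 1006 and 796, and ependymal markers to 141, 186 and 79.6. Markers of oligodendrocyte precursors came to 105, 143 and 364, of which 1 gene made up 87.6, 132 and 354 and 2 of 6 were at 0, and those of microglia to 70.0, 91.0 and 133. Their part in the import gene levels was not tested.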

How the data were processed

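The authors aligned the reads to mm10 with Cell Ranger and deposited, per library, UMI counts per gene and cell barcode, whole numbers without normalization. The submitters' processing notes name version 2.1.1, and the matrix headers name software 3.1.0. Where a symbol stood for several identifiers their counts were added. As in the study's methods, a cell needed over 600 but under 7500 genes, less than 20% mitochondrial UMIs and a YFP UMI. Counts were normalized with SCTransform and clustered on 8 dimensions at a resolution of 0.2 in Seurat 5.3.0 with sctransform 0.4.2 and R 4.3.3. Other steps used python 3.11.15, scipy 1.17.1 and pandas 2.3.3.

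Clusters were named by ranking genes on their fold over the median of the remaining clusters (10 CPM added to each). The marker list with most genes in the top 10 gave the name, provided that 3 or more of its genes, and not less than 1 in 3, were above a log2 fold of 1. This form of naming was settled only after seeing the clusters. Kept cells with 5% or more globin UMIs (1 CT and 4 Opa1 cKO) were left out of all classes. No doublet caller was run. UMIs were summed per library, class and mt share group and divided by all UMIs of that group. Intervals are exact Poisson (CPM) or from the exact binomial split of the counts (ratios) at 95%, cover counting error only, and were tested on simulated counts. Marker lists, import genes, roles, the further import genes, and the rule for values in full (the 10 largest ratios in each of the main NSC pool-like comparisons and the paralog pairs) were chosen with earlier results of these data known. Genes given from other classes and any others named were chosen after their values were seen. Between Opa1 cKO and CT, genes past the fold were not counted where 1 group held over 5 times the UMIs of the other. This limit was set after the values were seen. It was not applied to the comparison of classes within CT, which exceeds it. Gene positions are from GENCODE M21 of GRCm38, matched by identifier. Alternatives concerned the denominator, weighting, YFP filter, depth, shared barcodes, clustering, the UMI minimum, centring, the fold and the mt share bounds. Protein sequences were not used here.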

Additional observations from a re-analysis of the deposited data

Results flagged for a closer look

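Timm29 had opposite signs in 2 classes under the same contrast of Opa1 cKO over CT. Its log2 ratio was -2.10 in oligodendrocyte-like cells, on 23 UMIs in all, and 0.43 in NSC pool-like cells, on 448. The difference was not tested.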

How the results depend on the processing

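No result past its fold changed sign under the alternatives run for it, 7 to 13 per result. With the log2 ratios centred on the median of all genes, low over normal cells gave 2 import genes higher in place of 8, a median of 0.14 in place of 0.39, and 3 of the further import genes higher in place of 7, low cells over CT gave 8 higher in place of 12, and normal cells over CT gave 4 higher and 0 lower in place of 1 and 1. In Opa1 cKO over CT centring gave 6 higher in place of 7, and Tomm22 was under the fold with centring, without mitochondrially encoded UMIs and with cells lacking YFP kept (0.487 to 0.498). Without mitochondrially encoded UMIs in the denominator, low over normal cells gave 3 higher, and the log2 ratio of the lowest to the highest mt share bin was 0.33 in place of 0.43. Clustering without mitochondrial, import and ATF4 target genes gave 5 higher for low over normal and 0 lower for normal cells over CT, and no activated NSC-like class in both libraries. Bounds of 0.5% and 3% for mt share gave 13 higher for low over normal.

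A fold of 0.3 gave 15 higher in Opa1 cKO over CT in place of 7, 18 in low over normal, 20 in low cells over CT in place of 12, and 7 higher with 2 lower in normal cells over CT, and 11 of the further genes in low over normal. In normal cells over CT, keeping cells without YFP gave 0 higher and 0 lower, leaving out the 5% of cells with most UMIs gave 0 higher, and a minimum of 300 UMIs gave 0 lower. The causes were not tested. Timm8a1 was lowest at 1.03 for Opa1 cKO over CT and at 0.89 for low over normal.

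No paired analysis was possible because each genotype has 1 library, which also leaves no replicate to leave out. Depth limits the statements on Pam16, Tomm70a and all classes other than NSC pool-like cells.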
